A study of Mus musculus with 2 samples.

Results

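Hepatocyte-like barcodes are droplets whose RNA is dominated by hepatocyte transcripts, in a mouse single-cell study of liver endothelial cells. A barcode belonged to them if it had at least 500 unique molecular identifiers (UMIs, counted RNA molecules), at least 300 genes and under 20% mitochondrial UMIs. The genes Alb, Apoa1, Apoa2 and Fabp1 together had to take at least 2% of its UMIs. Stab1, Stab2, Clec4g and Dnase1l3, genes of liver sinusoidal endothelial cells (LSECs), had to stay under 0.3%, and the Kupffer cell genes C1qa, C1qb and C1qc under 0.2%. The rule found 1440 of 13969 deposited barcodes, 316 from control and 1124 from cirrhosis.

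Each library was made from cells pooled from 3 mice of the C57BL/6 strain, 16 weeks of age, with the genotype Cdh5-Cre+, mTmG +/+ in both groups. In these animals Cre driven by the endothelial Cdh5 promoter switches a membrane tdTomato reporter to membrane eGFP. The cirrhosis group had inhaled carbon tetrachloride (CCl4), a solvent toxic to hepatocytes, for 12 weeks. Only the title and the model label tell the groups apart, and what the control mice breathed is not given in the sources used here. In both groups the liver was digested with collagenase, hepatocytes were spun out, and GFP-positive cells that excluded the dye SYTOX Red were sorted and loaded on a droplet system. The hepatocyte-like barcodes are thus what remained after 2 steps meant to remove hepatocytes, and they need not stand for the hepatocytes of either liver. There was 1 library per group, so no difference could be tested. Intervals below are 95% and cover counting error only.

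Hepatocytes make most plasma proteins, clear ammonia and nitrogen through the urea cycle, make bile acids, and oxidise and conjugate foreign compounds with cytochrome P450 and transferase enzymes. Along the lobule, periportal hepatocytes are known for gluconeogenesis and the urea cycle, and pericentral hepatocytes for glutamine synthesis and cytochrome P450. In rodents the liver also secretes major urinary proteins (MUPs), small pheromone carriers that males make in large amounts. Their genes form a cluster on chromosome 4, in which some are near-identical copies and others differ more.

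The MUP genes set the 2 libraries apart most. The bases directly upstream of the TATATAAGG element are shown for 4 of them, to let the close copies Mup11 and Mup17 be compared with Mup3 and Mup21, which lie further along the cluster. Sequences are RefSeq's, on GRCm38.p6 and on the minus strand, 120 bases each, and end just before the element. Capitals mark the longest stretch that all 4 share, 22 bases. In the order printed they lie at chr4:60662398-60662517, chr4:61595858-61595977, chr4:62087329-62087448 and chr4:62150850-62150969.
Mup11: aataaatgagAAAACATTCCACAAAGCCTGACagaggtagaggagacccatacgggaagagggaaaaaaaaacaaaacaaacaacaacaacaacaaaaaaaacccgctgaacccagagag
Mup17: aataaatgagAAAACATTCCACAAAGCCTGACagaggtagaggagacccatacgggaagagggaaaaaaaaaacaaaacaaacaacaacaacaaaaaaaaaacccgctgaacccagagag
Mup3: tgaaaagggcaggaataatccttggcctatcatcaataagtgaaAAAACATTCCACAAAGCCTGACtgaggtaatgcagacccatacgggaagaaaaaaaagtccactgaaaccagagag
Mup21: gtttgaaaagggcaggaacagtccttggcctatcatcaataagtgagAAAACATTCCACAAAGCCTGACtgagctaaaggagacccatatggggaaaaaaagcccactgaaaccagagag
TATATAAGG was searched on both strands in windows from 250 bases before to 50 after the annotated start. It was found in 11 of 14 MUP windows and in 0.307% of 32851 windows of all genes. Over the 200 bases before it, Mup17 was 99.0% identical to Mup11, Mup3 62.6% and Mup21 59.7%. The likeness of the transcripts was not measured here. Where transcripts of Mup11 and its close copies are alike, reads are hard to assign, so the division of counts among them is uncertain.

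The barcodes were chosen by the shares of the rule's own genes, whose values are therefore given as a description only. Their median share was 5.28% of UMIs in control barcodes (range 2.08 to 17.9%) and 5.98% in cirrhosis barcodes (2 to 19.4%). At the threshold, 57 control and 119 cirrhosis members lay between 2 and 3%, and 25 and 122 barcodes that met every other limit lay just outside, between 1 and 2%. Those just outside held median shares of 4.17 and 3.01% of other hepatocyte markers, against 7.85 and 6.21% just inside. Alb, the albumin gene, stood at 28429 CPM (counts per 1000000 of the summed UMIs) in control and 30134 CPM in cirrhosis members. Fabp1, a fatty acid binding protein, stood at 8480 and 5752 CPM. The LSEC genes of the rule were at 0 in 39.2% of control and 53.1% of cirrhosis members.

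**Figure D1:**
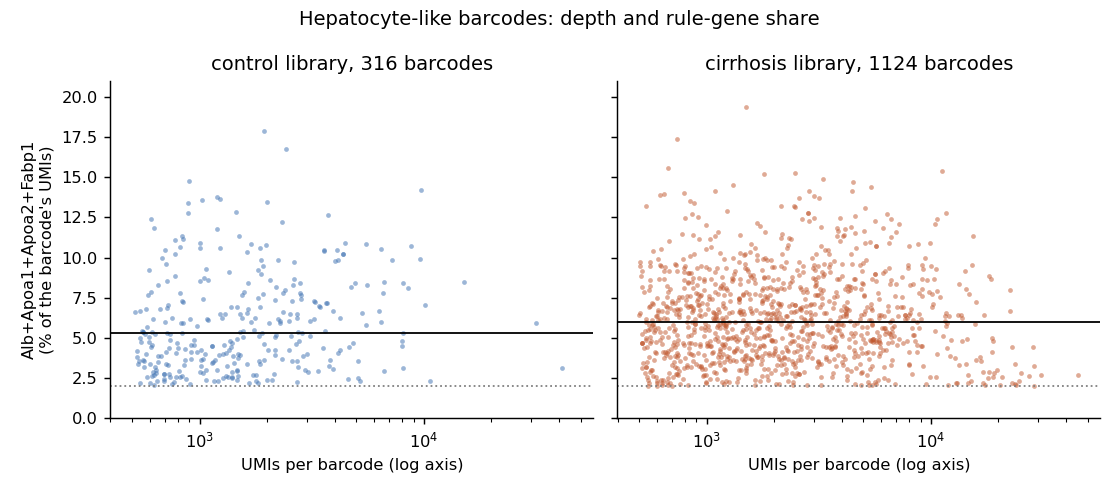
Each point is a hepatocyte-like barcode, with its UMIs on a log axis and the share of UMIs from Alb, Apoa1, Apoa2 and Fabp1. The solid line is the median (5.28% in control, 5.98% in cirrhosis) and the dotted line the rule's limit of 2%. Shares cover the same range in both libraries and at all depths, and there are more barcodes in cirrhosis.

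Hepatocyte markers that the rule did not use were abundant. All 30 of 30 further hepatocyte markers, among them Ttr, Trf, Apob and Asgr1, were at least 10-fold above LSEC reference barcodes of the same library. Their median excess was 111.5-fold in control (range 24.1 to 177.9) and 86.7-fold in cirrhosis (25.4 to 128.0). The reference was 3764 control and 3730 cirrhosis barcodes with LSEC genes at 0.3% or more, hepatocyte rule genes under 0.5% and C1q genes under 0.2%. Members and reference were thus set apart by the hepatocyte rule genes, so the excess of genes that go along with these is partly built in. The 30 markers took 11.9% of control and 11.4% of cirrhosis member UMIs. The 18 endothelial markers outside the rule took 0.207 and 0.167%, against 2.64 and 2.06% in the reference, with Vwf at 0 in control members.

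The sort was on GFP, and the reporter was low in these barcodes. In members eGFP stood at 169.3 CPM in control (140.9 to 201.7) and 206.1 CPM in cirrhosis (192.4 to 220.6), against 1638 and 1450 CPM in the LSEC reference. After thinning every barcode to 500 UMIs, eGFP was seen in 6.96 and 4.63% of members and in 54.0 and 46.8% of the reference. tdTomato, which marks cells without Cre activity, stood at 19 and 17 CPM in members and at 9.10 and 3.61 CPM in the reference. The control value rests on 14 UMIs in 6 members, and after thinning tdTomato was seen in 0.316 and 0.979% of members and in 0.186 and 0.107% of the reference. Members thus held less eGFP than LSECs of the same sort in both libraries, and tdTomato was too sparse in control for a comparison. Xist, which female cells transcribe, had 0 UMIs in members of both libraries, and the Y-linked Ddx3y had 32 and 203 UMIs.

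Hepatocyte-like barcodes made up 6.11% of the 5168 control barcodes past the cell filter (5.48 to 6.80, exact Clopper-Pearson) and 14.7% of 7662 in cirrhosis (13.9 to 15.5). Their sums were 738473 and 4050614 UMIs, with medians per barcode of 1440 and 2015.5, well under the 7357 and 10157.5 of the LSEC reference. The mitochondrial share was 5.47% at the median in control and 3.68% in cirrhosis members. No barcode sequence was a member in both libraries (0 shared, although 17 barcodes occurred in both). Doublets were kept, and a doublet score marked 0 control and 12 cirrhosis members. The sort, the spin and the loading could each set these shares, and their part was not tested.

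Transcripts of other cell types moved with some genes below. Over 0.5% of UMIs from any other lineage's markers was found in 29 control (9.18%) and 91 cirrhosis members (8.10%). Endothelial markers passed that limit in 21 and 46 members, cholangiocyte markers in 1 and 31, neutrophil markers in 0 and 7, and stellate cell markers in 5 and 0. Summed cholangiocyte markers took 0.0664% of control and 0.139% of cirrhosis member UMIs. All 6 neutrophil markers were seen in cirrhosis, and 5 of 6 were at 0 in control.

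The measure used from here on is the log2 ratio of CPM, cirrhosis over control, and a gene is called higher or lower at 2-fold or more, which is a rule of size and not a test. Of 2382 genes averaging at least 50 CPM, 135 were higher (5.67%) and 77 lower (3.23%), with a median ratio of 0.09. At the minimum of 20 CPM used for gene lists, with UMIs in both libraries, 5.59% of 4686 genes were higher and 3.35% lower, with a median of 0.05. Among 417 genes at least 10-fold above the LSEC reference in both libraries, called hepatocyte-enriched here, 25 were higher (6%) and 51 lower (12.2%), with a median of -0.24. The hepatocyte-enriched genes thus leaned to lower values, and all genes did not.

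**Figure D2:**
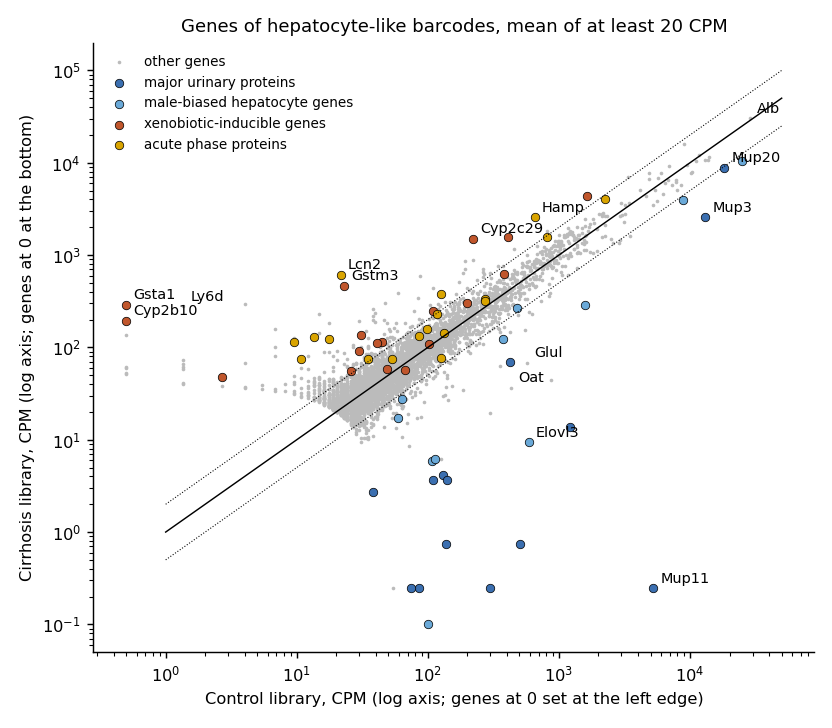
CPM of each gene in control (x) and cirrhosis (y) hepatocyte-like barcodes, both on log axes, for genes averaging at least 20 CPM. The solid line marks equal CPM and the dotted lines a 2-fold difference. MUP genes (dark blue) lie below the lower dotted line, and Gsta1 and Cyp2b10, at 0 in control, lie at the left edge.

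All 14 measured MUP genes of 21 in the table were lower in cirrhosis, where 3.35% of all genes were, and their median ratio was -5.87 (all genes 0.05). The other 7 were under the minimum. Mup11 had 3862 UMIs in control (5230 CPM) and 1 in cirrhosis (0.247 CPM), a log2 ratio of -14.37 (-19.67 to -11.89). Mup1 stood at 296.6 against 0.247 CPM, and Mup7 at 502.4 against 0.741 CPM, from 1 and 3 cirrhosis UMIs. Mup17 stood at 1223 CPM in control and 13.6 CPM in cirrhosis, 90.1-fold lower (68.6 to 120). These copies were thus prominent in control and nearly absent in cirrhosis.

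A few family members stood far above the rest in cirrhosis. Mup20, also named darcin, the pheromone that attracts females, stood at 18259 CPM in control and 8842 CPM in cirrhosis, 2.06-fold lower (2.02 to 2.11). Mup3 stood at 13020 and 2554 CPM, 5.10-fold lower, and Mup21 at 423.8 and 69.9 CPM, 6.07-fold lower. Summed over the 21 genes in the table, MUPs came to 39781 CPM in control and 11500 CPM in cirrhosis, 3.46-fold lower. That sum does not depend on how reads were divided among the copies, although reads that match several may be missing from it. The 2 measured genes at least 90% identical to Mup11 upstream, Mup9 and Mup17, were 38.0-fold and 90.1-fold lower.

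**Figure D3:**
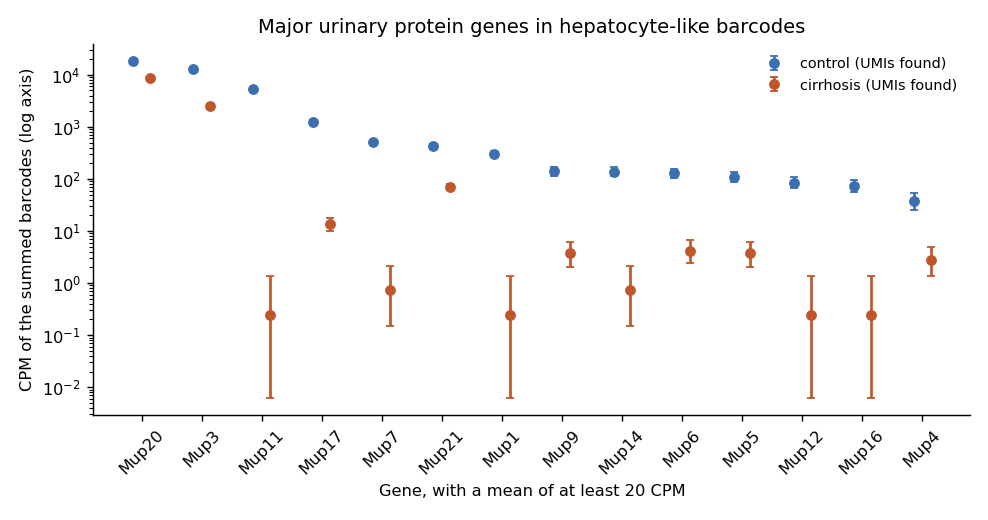
CPM of the 14 measured MUP genes in control (blue) and cirrhosis (orange) hepatocyte-like barcodes on a log axis, with exact Poisson 95% intervals. Every gene is lower in cirrhosis, from Mup20 at 18259 against 8842 CPM to Mup11 at 5230 against 0.247 CPM.

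The low level of Mup11 was seen in single barcodes and at every depth. After thinning to 2000 UMIs, which left 109 control and 564 cirrhosis members (207 and 560 shallower ones left out), Mup11 was found in 97 control (89.0%, 81.6 to 94.2) and 1 cirrhosis member (0.177%, 0.00449 to 0.984). In LSEC reference barcodes thinned alike, with median depths of 7466 and 10211 UMIs against 3413 and 4311.5 in members, it was found in 4.27 and 0.0273%. Without thinning, Mup11 was seen in 79.1% of all control and 0.089% of all cirrhosis members. In members of 500 to 1000 UMIs it stood at 4534 CPM in control and had 0 UMIs in cirrhosis, and in members of 5000 UMIs or more at 5046 CPM and 0 UMIs.

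Other genes known for higher levels in male liver followed the same direction. This list was put together after the data had been seen, so its direction is no independent evidence. Of its 10 measured genes 9 were lower and 0 higher, with a median of -1.69, and Serpina1e and Gstp1 on it also belong to other lists. Elovl3, a fatty acid elongase, stood at 587.7 against 9.38 CPM, 62.6-fold lower (44.9 to 89.7). Hsd3b5, a steroid dehydrogenase of male liver, had 74 UMIs in control (100.2 CPM) and 0 in cirrhosis, at least 135.3-fold lower against a floor of 3 UMIs in the sum. Cyp7b1, an oxysterol hydroxylase, stood at 108.3 against 5.93 CPM, and Slco1a1, an organic anion carrier, at 112.4 against 6.17 CPM. Selenbp2 stood at 1592 against 288.8 CPM. Of 15 female-biased genes none (0) reached 20 CPM, so a gain of those was not measurable, and their sum was 19 CPM in control and 40.2 CPM in cirrhosis.

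The lowest ratios outside both groups included enzymes and secreted proteins. Sult2a8, a hydroxysteroid sulfotransferase, stood at 866.7 against 44.2 CPM, 19.6-fold lower (16.6 to 23.3). Serpina12, the hepatokine vaspin, stood at 299.3 against 19.5 CPM, and Aox3, an aldehyde oxidase, at 353.4 against 63.4 CPM. Phlda1 stood at 184.2 against 34.6 CPM. The gene AC169509.3, for which no function is given here, stood at 125.9 against 6.17 CPM.

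Enzymes that drugs and foreign compounds are known to induce were higher in cirrhosis. This list too was chosen after the data had been seen. Of 16 measured genes 11 were higher and 0 lower (all genes 5.59 and 3.35%), with a median of 1.39, and of 2 more that had 0 UMIs in control both were higher. Cyp2b10 (chromosome 7, 25897620 to 25926624, GRCm38), the P450 best known for induction through the nuclear receptor CAR, had 0 UMIs in control and 790 in cirrhosis (195.0 CPM), at least 48.0-fold higher against the floor of 3 UMIs. Gsta1 (chromosome 9, 78230656 to 78242684), an alpha class glutathione transferase, had 0 and 1179 UMIs (291.1 CPM), at least 71.7-fold higher. Neither transcript was found in the control library's members at any depth.

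Other inducible genes were present in control and stood higher in cirrhosis. Gstm3, a mu class glutathione transferase, stood at 23 against 466.6 CPM, 20.3-fold higher (12.6 to 34.9). Cyp2c29 stood at 220.7 against 1502 CPM, 6.80-fold higher (5.82 to 8), and Cyp3a11, the main drug-metabolising P450 of its family, at 411.7 against 1572 CPM, 3.82-fold higher. Gsta2 stood at 31.1 against 134.5 CPM, a gene so like Gsta1 that reads may be shared between them. Por, the electron donor of microsomal P450s, stood at 29.8 against 92.1 CPM, with a ratio of 1.63 that was 0.75 after thinning to 500 UMIs. Nr1i3, which encodes CAR itself, went the other way, at 71.8 against 8.64 CPM, 8.31-fold lower (5.32 to 13.1).

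Cyp2b10 was not in every cirrhosis barcode. Among members thinned to 2000 UMIs it was found in 152 of 564 in cirrhosis (27.0%, 23.3 to 30.8) and 0 of 109 in control, which allows a share of up to 2.75%, against 0.519 and 0% of the LSEC reference. Cyp2c29 was found in 81.6% of the cirrhosis barcodes with Cyp2b10 (74.5 to 87.4) and in 56.3% of those without (51.4 to 61.2). Gsta1 was found in 36.8% of those with Cyp2b10 (29.2 to 45) and in 27.9% of those without (23.6 to 32.5). The 2 intervals for Cyp2c29 thus lay apart, and those for Gsta1 overlapped. Cyp2e1 was found in 28.9% of those with Cyp2b10 and 18.9% of those without, and Cyp2f2 in 21.7 and 26.9%. Barcodes of 1 library are not replicates, and thinning did not make their share of hepatocyte RNA equal. The cause of these paired shares was not tested.

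Cytochrome P450 genes as a family went in both directions. Of 33 measured, 4 were higher and 9 lower, with a median of -0.30, and Cyp2b10 comes on top of these. Besides those named, Cyp1a2, an arylamine-oxidising P450, stood at 173.3 against 295.8 CPM, inside 2-fold. Cyp2e1, the P450 that activates CCl4, stood at 549.8 CPM in control and 156.0 CPM in cirrhosis, 3.52-fold lower (3.1 to 4). Cyp8b1, the sterol 12-alpha-hydroxylase of bile acid synthesis, stood at 139.5 against 46.2 CPM, although its ratio of -1.60 was -0.83 after thinning. Conjugating enzymes were likewise split, 8 of 41 higher and 8 lower with a median of -0.11. Gstm1 stood at 1636 against 4388 CPM and Gstp1 at 8876 against 3919 CPM. Bile acid genes had 1 of 19 higher and 5 lower, with a median of -0.60, and Baat, which couples bile acids to taurine, stood at 261.4 against 110.1 CPM.

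Acute phase proteins, which hepatocytes secrete in inflammation, were higher in 8 of 18 measured genes and lower in 0, with a median of 0.95 (all genes 0.05, 5.59% higher). Lcn2 (chromosome 2, 32384633 to 32388252), an iron-siderophore binding protein, had 16 UMIs in control (21.7 CPM) and 2470 in cirrhosis (609.8 CPM), 28.1-fold higher (17.3 to 49.3). Hamp, hepcidin, the hormone that blocks iron export, stood at 652.7 against 2578 CPM, 3.95-fold higher (3.6 to 4.34), and its copy Hamp2 at 9.48 against 113.3 CPM. Orm2, an orosomucoid, stood at 13.5 against 129.1 CPM. Saa1 and Hp, serum amyloid A and haptoglobin, stood inside 2-fold at 98.9 against 156.8 CPM and 2228 against 4039 CPM. The ratio of Saa1 was 0.67 and reached 1.78 after thinning to 500 UMIs, and that of Hp was 0.86 and reached 1.17 in members of 500 to 2000 UMIs.

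These transcripts differed in how widely they were spread. Among members thinned to 2000 UMIs, Hamp was found in 39.4% of control (30.2 to 49.3) and 86.0% of cirrhosis barcodes (82.9 to 88.8), and Lcn2 in 2.75 and 42.2%. The LSEC reference held Hamp in 0.744 and 3.49% and Lcn2 in 0.275 and 2.35%. Iron handling genes had 3 of 13 higher and 0 lower, of which Hamp and Hamp2 are also acute phase genes. The third was Id1, a target of BMP signalling, at 31.1 against 101.2 CPM. Its ratio of 1.70 was 0.32 with a rule-gene minimum of 5%, and LSECs held more of it, at 194.7 and 315.4 CPM.

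Plasma carriers and protease inhibitors stayed close to control, with 1 of 25 higher, 2 lower and a median of 0.13. Ttr, transthyretin, stood at 8987 against 16108 CPM and Hpx, hemopexin, at 2169 against 4023 CPM. Ahsg, fetuin-A, stood at 3366 against 7010 CPM, with a ratio of 1.06 that was 0.84 with a rule-gene minimum of 1%. Serpina1e, an alpha-1 antitrypsin copy, stood at 24866 against 10500 CPM (ratio -1.24), and -0.89 with a minimum of 5%. Apolipoprotein genes had 1 of 13 higher and 0 lower: Apoa4, of triglyceride-rich particles, at 59.6 against 392.3 CPM, 6.58-fold higher (4.88 to 9.10). Of 20 coagulation genes 0 were higher and 1 was lower, Klkb1, with a ratio of -1.40 that was -0.74 after thinning to 500 UMIs. Of 18 complement genes 2 were lower and 0 higher, C6 at 59.6 against 17.3 CPM and C8b at 203.1 against 90.6 CPM (ratio -1.16, and inside 2-fold in 4 alternatives, up to -0.87).

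**Figure D4:**
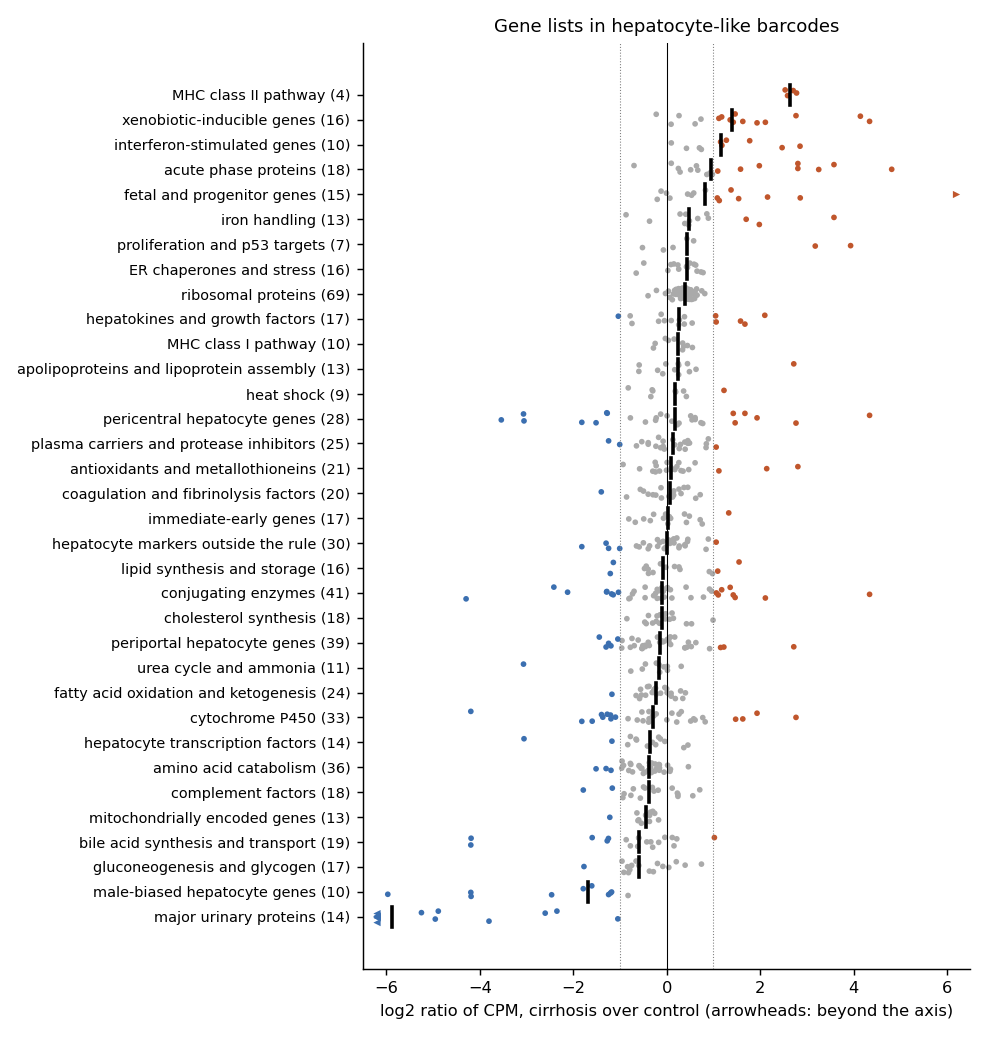
Each point is a gene of a list, placed by its log2 ratio of CPM, cirrhosis over control, with orange at 2-fold higher or more and blue at 2-fold lower or more. Black bars are medians, numbers in brackets count the measured genes, and genes at 0 in a library are left out. MUPs lie lowest (median -5.87), and MHC class II (2.65) and inducible genes (1.39) highest.

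Zonation genes went in both directions. Of 28 measured pericentral genes 6 were higher and 7 lower (median 0.17), and of 39 periportal genes 3 were higher and 5 lower (median -0.15). Glul, glutamine synthetase (chromosome 1, 153899944 to 153909723), which marks the hepatocytes next to the central vein, stood at 570.1 CPM in control and 68.1 CPM in cirrhosis, 8.37-fold lower (7.17 to 9.77). Its log2 ratio of -3.06 ranged from -4.42 in members of 500 to 2000 UMIs to -2.52 with a rule-gene minimum of 1%. Members of 1000 to 2000 UMIs held 573.7 against 24.0 CPM of Glul, and those of 5000 or more 334.2 against 87.6 CPM. Oat, ornithine aminotransferase of the same cells, stood at 427.9 against 36.8 CPM, 11.6-fold lower (9.54 to 14.2). LSECs also held both transcripts, Glul at 359.3 and 434.2 CPM and Oat at 58.8 and 52.4 CPM in the reference, so the cirrhosis values of members lay below those of LSECs. The pericentral genes that were higher included the inducible Gstm3, Cyp2c29 and Cyp3a11, and also Lect2, a secreted chemotaxin, at 78.5 against 250.6 CPM.

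In control, barcodes with Glul held Oat more often than barcodes without it, and in cirrhosis the intervals overlapped. Among members thinned to 2000 UMIs, 14 of 23 control barcodes with Glul also had Oat (60.9%, 38.5 to 80.3), against 12.8% of those without Glul (6.56 to 21.7). In cirrhosis 5 of 63 did (7.94%, 2.63 to 17.6), against 4.59% without (2.93 to 6.81). Cyp2e1 was found in 69.6% of control barcodes with Glul and in 33.7% without, and in 23.8 and 21.4% in cirrhosis. Glul itself was found in 21.1% of control and 11.2% of cirrhosis members, and in 48.3 and 56.3% of the LSEC reference. The difference between libraries in these paired shares was not tested.

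Of 11 genes of the urea cycle and ammonia list 8 were below 0 (median -0.16, hepatocyte-enriched genes -0.24), with 1 of them, Glul, lower by 2-fold. Cps1, its first enzyme, stood at 220.7 against 199.0 CPM, Ass1 at 4604 against 4415 CPM and Arg1 at 1550 against 1130 CPM. Otc stood at 834.2 against 489.6 CPM and Asl at 652.7 against 454.3 CPM, also inside 2-fold. Cyp2f2, a periportal P450, stood at 377.8 against 165.2 CPM, with a ratio of -1.19 that was -0.26 after thinning to 500 UMIs. Pigr, which carries IgA into bile, stood at 617.5 against 227.1 CPM, and Tat, tyrosine aminotransferase, at 591.8 against 240.7 CPM. Hsd17b13, a lipid droplet enzyme, stood at 163.9 against 382.4 CPM, and its ratio of 1.22 was 0.87 in members of 500 to 2000 UMIs.

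Per barcode, the share of 14 pericentral genes in the UMIs of these and 14 periportal genes could be read in 287 control and 1026 cirrhosis members with at least 10 such UMIs. The median share was 8.11% in control (quartiles 0 and 23.9) and 23.1% in cirrhosis (10.0 and 41.1). Without the 5 pericentral genes that are on the inducible list, the medians were 6.90 and 12.0%. Barcodes with over 75% pericentral UMIs were 24 in control (8.36%) and 32 in cirrhosis (3.12%), and without the inducible genes 21 (7.47%) and 6 (0.612%). Without the inducible genes, 79.4% of control and 75.3% of cirrhosis barcodes lay under 25% pericentral, and the pooled pericentral share was 18.96% in control and 15.4% in cirrhosis, against 21.7 and 28.4% with them. Most barcodes of both libraries thus lay at the periportal end once those genes were left out, and the order of the pooled shares turned.

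**Figure D5:**
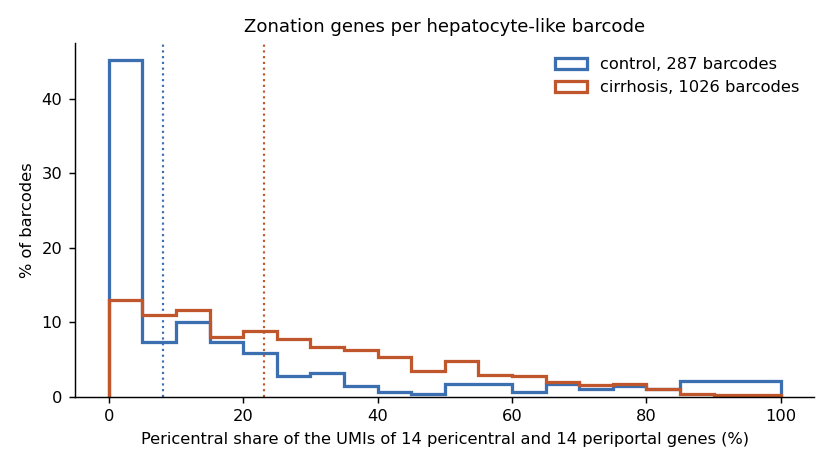
Share of barcodes (y) by the pericentral share of their zonation UMIs (x, bins of 5%) in control (blue, 287 barcodes) and cirrhosis (orange, 1026 barcodes), with dotted lines at the medians of 8.11 and 23.1%. Control barcodes pile up in the lowest bin, and cirrhosis barcodes spread over the lower part of the axis.

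Few genes of the metabolic lists were past 2-fold. Amino acid catabolism had 32 of 36 genes below 0, 3 of them lower by 2-fold, with a median of -0.37. Hepatocyte-enriched genes at large had a median of -0.24 with 12.2% lower, so a lean below 0 was not particular to this list. Gluconeogenesis and glycogen genes had a median of -0.60 with 1 of 17 lower, and Pck1, the committing enzyme of gluconeogenesis, stood at 1174 against 604.8 CPM. Fatty acid oxidation had a median of -0.23, close to that of all hepatocyte-enriched genes and 0.055 with a rule-gene minimum of 5%, and 1 of 24 lower, Ppara, its master nuclear receptor, at 40.6 against 18.0 CPM. Lipid synthesis had 2 of 16 higher and 2 lower, and its median of -0.075 changed sign in 6 alternatives, with Scd1, a fatty acid desaturase, at 834.2 against 361.2 CPM (ratio -1.21, and -0.57 after thinning) and Cd36, a fatty acid transporter that LSECs hold at 527.2 and 1326 CPM, at 35.2 against 102.9 CPM. Cholesterol synthesis had 0 of 18 past 2-fold, and its median of -0.11 changed sign in 3. Hepatocyte transcription factors had 12 of 14 below 0, with a median of -0.36. Hnf4a, the central regulator of hepatocyte identity, stood at 135.4 against 101.7 CPM and Cebpa at 211.2 against 118.5 CPM. The 13 mitochondrially encoded genes were all below 0 (median -0.44) and 66 of 69 ribosomal protein genes above 0 (median 0.39, all genes 0.05).

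Fetal and progenitor genes were higher in 7 of 15 measured and lower in 0, with a median of 0.83 that was -0.20 with a rule-gene minimum of 1%. Ly6d (chromosome 15, 74762056 to 74763620), a surface protein of the Ly6 family, had 1 UMI in control (1.35 CPM) and 1137 in cirrhosis (280.7 CPM), a ratio of 7.70 (5.21 to 13). With the minimum of 1% the ratio of Ly6d was 4.52. It was found in 23% of cirrhosis members thinned to 2000 UMIs and in 0 of 109 control members, which allows up to 2.75%. In the LSEC reference thinned alike it was found in 0.771% of control and 1.61% of cirrhosis barcodes. Without thinning, the control reference held 571 UMIs of Ly6d and the cirrhosis reference 927. Lcn2 was found in 54.6% of cirrhosis barcodes with Ly6d (45.7 to 63.4) and in 38.5% of those without (33.9 to 43.2).

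Others of that list are also genes of bile duct or endothelial cells. Spp1, osteopontin, stood at 452.3 against 1174 CPM and was found in 7.34 and 40.4% of members thinned to 2000 UMIs, and in 4.63 and 7.45% of the reference. Of its UMIs 98.2% lay in 10 control members and 58.7% in 10 cirrhosis members, so a few barcodes carried much of either sum. The keratins Krt8 and Krt18, which hepatocytes share with bile duct cells, stood at 262.7 against 572.8 CPM and 299.3 against 633.7 CPM. Anxa2 stood at 33.9 against 151.1 CPM and Ccnd1, cyclin D1, at 51.5 against 149.6 CPM (ratio 1.54, and 0.98 after thinning), with 293.1 and 315.7 CPM of Ccnd1 in LSECs. Summed cholangiocyte markers were higher with them, at 663.5 and 1389 CPM, of which Spp1 itself is the largest part, and of the 4 measured markers 2 were above and 2 below 0. Summed endothelial markers were lower in cirrhosis. The part of these cells in the list's values was not tested. Without the 29 and 91 barcodes of other lineages the list's median was 1.67. Afp, the fetal albumin-like protein, had 0 UMIs in control and 67 in cirrhosis.

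Of 7 measured proliferation genes and p53 targets 2 were higher, Stmn1 and Tyms, and 0 lower, with a median of 0.43. Stmn1, a microtubule regulator of dividing cells, stood at 14.9 against 227.9 CPM, 15.3-fold higher (8.51 to 30.8). Its ratio of 3.94 ranged from 3.07 with a rule-gene minimum of 1% to 5.52 with 5%. It was found in 1.83 and 28.5% of members thinned to 2000 UMIs, against 5.15 and 9.47% of the reference. Birc5 and Ccnb2, of mitosis, had 0 UMIs in control and stood at 62.0 and 53.3 CPM in cirrhosis, at least 15.3-fold and 13.1-fold higher. Mki67, the usual cycling marker, had 1 and 21 UMIs. Cdkn1a, the p53 target p21, stood at 59.6 against 65.4 CPM.

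Stress and defence genes varied by list. Metallothioneins, which bind zinc and other metals, were higher, Mt1 at 193.6 against 853.5 CPM, 4.41-fold (3.73 to 5.25), and Mt2 at 17.6 against 123.2 CPM, while the reference held 503.1 and 519.7 CPM of Mt1. Antioxidant genes, which include the metallothioneins, had 3 of 21 higher and 0 lower, and MHC class I genes 0 of 10 past 2-fold. Endoplasmic reticulum chaperones had 0 of 16 past 2-fold and a median of 0.43. Heat shock genes had 1 of 9 higher, and immediate-early genes 1 of 17, Btg2, whose direction turned under another rule-gene minimum. Interferon-stimulated genes were higher in 6 of 10 and lower in 0, with a median of 1.17. That median ranged from 0.65 after thinning to 500 UMIs to 1.61 in members of 500 to 2000 UMIs. Among these genes Isg15, a ubiquitin-like antiviral protein, stood at 10.8 against 78.3 CPM. In LSECs Isg15 stood at 41.2 and 84.8 CPM. Ifi27l2b, of the interferon-inducible family, stood at 6.77 against 160.0 CPM and was hepatocyte-enriched, as was Fam25c at 6.77 against 101 CPM.

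Hepatocyte-secreted factors had 5 of 17 higher and 1 lower. Igfbp1, an insulin-regulated binding protein of growth factors, stood at 19 against 81.2 CPM, and Fgl1, a fibrinogen-like ligand, at 125.9 against 376.5 CPM. The lower was Enho, adropin, at 142.2 against 69.4 CPM.

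Some of the highest ratios belonged to transcripts known from other cell types. S100a8 and S100a9, neutrophil calprotectin, had 0 and 3 UMIs in control and 1089 and 1191 in cirrhosis, of which 99.2% lay in 10 members. Without barcodes of other lineages their ratios were -0.34 and -0.45. With 0 UMIs in control, S100a8 was set against the floor of 3 UMIs, so the sign of its ratio gives no direction. The MHC class II list, chosen after the data had been seen, had 4 of 4 higher with a median of 2.65, led by Cd74, the invariant chain, at 86.7 against 594.7 CPM. In members of 500 to 2000 UMIs that median was 0.50. Ly6a and Ednrb, at 47.4 against 304.4 CPM and 17.6 against 182.4 CPM, stood at 1518 and 1537 CPM in cirrhosis LSECs, and Cd63 at 37.9 against 262.2 CPM stood at 214.6 CPM there. How much of these came from other cells was not tested.

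Hepatocyte transcripts in LSEC barcodes mostly differed in the same direction. Per 100 UMIs of Alb, Mup11 stood at 18.4 in control members and 10.3 in the control reference, and at 0.000819 and 0.0654 in cirrhosis. Cyp2c29 stood at 4.98 in cirrhosis members and 4.81 in the cirrhosis reference, and Cyp2b10 at 0.647 and 0.957. Of 411 hepatocyte-enriched genes with at least 20 reference UMIs, 25 were higher in cirrhosis members, and relative to Alb all 25 were also higher in the reference. Of the 49 that were lower, 48 were lower there. By direction and relative to Alb, called genes thus differed the same way, with that 1 exception, in the small amounts of hepatocyte RNA found in LSEC droplets. The share of all 411 genes above or below Alb in the reference was not counted. How far the counts of called genes exceed that share is therefore not given. Members were called by CPM, and by CPM Scd1 stood at -1.21 in members and 0.144 in the reference, where Alb stood at 0.201. The genes counted had to be at least 10-fold above this same reference in both libraries. Genes that differed strongly between members and reference could drop out by that limit, so the agreement is partly built in.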

How the data were processed

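Single-cell RNA of sorted liver cells was measured in 1 control and 1 cirrhosis library. The deposited tables hold whole-number UMI counts per gene symbol and barcode, not normalized. Cell Ranger and mm10 are named per the submitters' processing notes, and no version, annotation or filter is stated there. Library totals were 45767322 and 77339928 UMIs. The lowest deposited barcode had 500 UMIs.

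Counts of members were summed per library and divided by their total (CPM). Ratios carry exact conditional intervals, which were tested on simulated counts. Those counts were Poisson draws, the model that the intervals assume. They left out the clumping of UMIs in few barcodes, so the test could not show how well the intervals cover for these data. Shares carry exact Clopper-Pearson intervals, which were not tested on simulated counts. List genes needed a mean of 20 CPM and UMIs in both libraries, and a library at 0 was set to a floor of 3 UMIs in the sum. No test was made. Members, lists and named genes were chosen with earlier results of these data known, and 4 of 38 gene lists were added in this work. Named were the 3 genes of each list with the largest ratios (6 in main lists, mean of 50 CPM), the 15 highest and 15 lowest of all genes (100 CPM), the 10 highest and lowest hepatocyte-enriched genes, and a fixed set. Other genes were picked after their values were seen. Doublets were scored against simulated doublets and kept. Thinning drew UMIs without replacement. Gene positions are GENCODE M21 on GRCm38, in which 30464 of 31057 symbols were found. Python 3.11.15, numpy 2.4.6, scipy 1.17.1, pandas 2.3.3, scikit-learn 1.9.0 and matplotlib 3.10.9 were used. In all 17 alternatives were tried, 1 of them (erythroid barcodes left out) chosen after seeing the data.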

Additional observations from a re-analysis of the deposited data

How the results depend on the processing

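No paired analysis was possible because each group has 1 library and the labels give no replicate numbers. The share of hepatocyte-like barcodes in cirrhosis was 16.3% with a rule-gene minimum of 1%, 9.24% with 5%, 12.4% with an LSEC maximum of 0.1%, 13.6% with a Kupffer maximum of 0.05%, 11.9% from 1000 UMIs, 16.3% with a mitochondrial maximum of 10% and 13.5% without other lineages. The control share was 3.25% with the minimum of 5%, 4.08% with the LSEC maximum of 0.1% and 4.25% from 1000 UMIs, and it stayed below the cirrhosis share in each. Genes lower by 2-fold were 148 after thinning to 500 UMIs and 142 in members of 500 to 2000 UMIs, and the cause was not tested. Genes higher and lower were 70 and 41 at double the minimum CPM, and 1348 and 1251 with no minimum. The plasma carrier median was 0.42 after thinning and 0.31 in members of 500 to 2000 UMIs, where the pericentral median was 0.48. Btg2 turned to -0.73 with the minimum of 1%, and S100a9 to -0.45 without other lineages. In members of 500 to 2000 UMIs, H2-Eb1 and S100a9 turned to -0.34 and -1.06. S100a9 had no more than 3 UMIs in control. For these turns the cause was not tested. S100a8 came to -0.34 and -0.0633 in the settings named for S100a9. Control held 0 UMIs of S100a8, so these values stand against the floor of 3 UMIs and their sign gives no direction. Of 133 named genes 77 were past 2-fold, and 55 of them stayed so under all 17 alternatives. The ratios of Mup11, Cyp2b10 and Gsta1, which rest on 0 or 1 UMI in a library, ranged from -14.53 to -9.82, 3.42 to 5.66 and 4.06 to 6.26. Median-of-ratios scaling moved all genes by 0.0174. Depth limits the control side most, with 738473 UMIs in members.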
